A study of Caenorhabditis elegans with 12 samples.

Results

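Fatty acids are burned in 3 steps, and the genes described here encode their enzymes in Caenorhabditis elegans: acyl-CoA synthetases (acs), carnitine palmitoyltransferases of the cpt family, and the oxidation enzymes named acdh, acox, ech, maoc and kat. Members were taken by symbol alone, from probe sets that carry 1 gene symbol starting with one of those 7 prefixes. Where a gene had several probe sets, the one with the highest mean over all arrays stands for it. This gave 58 of the 17118 genes that have a probe set of their own: 23 acs, 6 cpt, 12 acdh, 5 acox, 10 ech, 1 maoc and 1 kat gene.

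A fatty acid is first joined to coenzyme A by a synthetase. Long chains then cross into mitochondria as carnitine esters, made by one carnitine palmitoyltransferase at the outer membrane and taken apart by another at the inner one. In each round of beta-oxidation a dehydrogenase (in peroxisomes an oxidase), a hydratase, a second dehydrogenase and a thiolase shorten the chain, and in C. elegans the peroxisomal route also trims the side chains of ascaroside pheromones.

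The study measured total RNA of whole wild-type (N2) worms on Affymetrix 3' expression arrays. Synchronized worms were fed RNA interference (RNAi) bacteria (HT115 E. coli) for 3 days and taken as day 3 adults, with eggs and larvae rinsed away in between. The 12 arrays fall into 4 groups of 3. In the first, worms received RNAi against hsp-6 and hsf-1 together (hsp-6;hsf-1, called hsf-1 double RNAi here). Another is labelled hsp-6;dve-1, for RNAi against hsp-6 and dve-1 (the dve-1-labelled arrays). The last 2 groups received hsp-6 RNAi alone and the empty vector, which is the control. All groups share the strain, the age and the feeding time. HSP-6 is the Hsp70 chaperone of mitochondria, HSF-1 drives the heat shock response, and DVE-1 is a nuclear factor of the unfolded protein response of mitochondria. RNAi by feeding lowers a transcript and does not delete the gene. Nothing in the labels tells whether the replicates were grown apart, so p-values measure only the spread between these arrays.

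Values are log2 GCRMA values, the background-corrected and normalized signal of a probe set on a log2 scale. They cannot be compared between genes, since probes bind with different strength. A probe set was tested when it passed log2 4 on at least 3 arrays, as 12057 did. The share of probe sets past that level was 49% to 52.9% over the arrays. The hsp-6 transcript averaged 9.63 in hsf-1 double RNAi, 9.82 on the dve-1-labelled arrays and 6.84 in hsp-6 RNAi, against 11.12 in empty vector. The hsp-6 knockdown was thus smaller on the double RNAi arrays, by 2.79 and 2.98 on the log2 scale (adjusted p = 0.00236 and 0.000859). Comparisons of these arrays with hsp-6 RNAi differ at once in the second RNAi target and in the strength of the hsp-6 knockdown. These 2 cannot be told apart. hsf-1 averaged 6.92 in hsf-1 double RNAi, against 7.82 in hsp-6 RNAi (adjusted p = 0.121). Its mean was 7.67 on the dve-1-labelled arrays and 8.57 in empty vector. The 2 double RNAi groups overlapped in hsf-1, with 6.87 on dve-1-labelled replicate 2 against 6.84, 7.24 and 6.68 in hsf-1 double RNAi. dve-1 goes against its label: it averaged 8.06 on the dve-1-labelled arrays, against 5.53 in hsp-6 RNAi (adjusted p = 0.0297), so every direction given for these arrays is that of a label which the dve-1 probe set does not bear out. In the same probe set hsf-1 double RNAi averaged 6.76 (limma adjusted p = 0.208 against hsp-6 RNAi), and its arrays overlapped with the dve-1-labelled ones. A second dve-1 probe set had 4.85 on the dve-1-labelled arrays, against 4.61 in hsp-6 RNAi (adjusted p = 0.625). Whether either lies in the part targeted by the RNAi was not tested. Replicates 1 and 3 of hsp-6 RNAi were more alike than any other pair of arrays (Pearson correlation over probe sets 0.9966, next 0.9825). Each hsf-1 double RNAi array also had a dve-1-labelled array as a close match, replicate 1 with 1 at 0.9825, replicate 3 with 2 at 0.9751 and replicate 2 with 3 at 0.9754.

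Of the 58 members, 45 were tested, and 36 of these lay above log2 4 on all arrays. The other 9 passed on some arrays only, among them acdh-8, acs-6 and cpt-4, which did so only on double RNAi arrays. The 13 members not tested were acdh-2, acdh-5, acdh-6, acs-3, acs-10, acs-15, acs-16, acs-18, acs-23, acs-24, acs-25, cpt-3 and ech-5, with values from 2.16, the floor of the deposited values, to 5.14. Over the 12 arrays the tested members spanned a median range of 1.94, against 1.48 for all probe sets tested. The widest range was that of acs-2, at 6.51, and the narrowest that of cpt-2, at 0.22.

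With hsp-6 RNAi, none of the 45 tested members passed the test against empty vector (limma, Benjamini-Hochberg adjusted over all 12057 probe sets), where 2.74% of all probe sets did. At an unadjusted p below 0.05 there were 13 of the 45 members, and 21.6% of all probe sets. Other processing settings called between 0 and 6 members in this comparison. All probe sets called rose too, from 330 to 1681 of 12057 where 6 members were called, without the 2 outermost arrays. With only the 2 groups in the fit, 5 members and 1049 of all probe sets were called. The members' median difference was 0.13 on the log2 scale, against -0.02 for all probe sets tested. Groups did not overlap for 11 members, 9 higher and 2 lower in hsp-6 RNAi, which is 24.4% of members against 39.7% of all probe sets. Against hsp-6 RNAi, 4 members passed in hsf-1 double RNAi. acdh-8 and kat-1 rose, and acs-1 and acdh-11 fell, which is 8.89% of the tested members against 5.67% of all probe sets. Without acdh-8, which passed the filter only through double RNAi arrays, it is 3 of 44, or 6.82%. At an unadjusted p below 0.05 the count was 15 of the 45 members, against 24.7% of all probe sets. The groups did not overlap for 20 members, 44.4% against 34.4%. Both counts include acdh-8. The 20 also include acs-6 and cpt-4, likewise tested only through double RNAi arrays, and acs-6 was at 2.21 on replicate 2, against at most 2.17 in hsp-6 RNAi. The filter thus favoured a higher share. On the dve-1-labelled arrays, acdh-8 and kat-1 also rose and acs-1, acdh-11 and cpt-1 fell, which is 11.1% against 5.74%, and without acdh-8 is 4 of 44, or 9.09%. Here 14 of the 45 members had an unadjusted p below 0.05, against 24.2% of all probe sets. No overlap was seen for 20 members, 44.4% against 33.8%, with acdh-8 and acs-6 among them and the same limit of the filter. These 2 comparisons share the hsp-6 RNAi arrays, so their likeness is not a second measurement. In both, the second RNAi target and the weaker hsp-6 knockdown cannot be told apart. With 4 and 5 genes called, neither share was tested against the background.

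**Figure D1:**
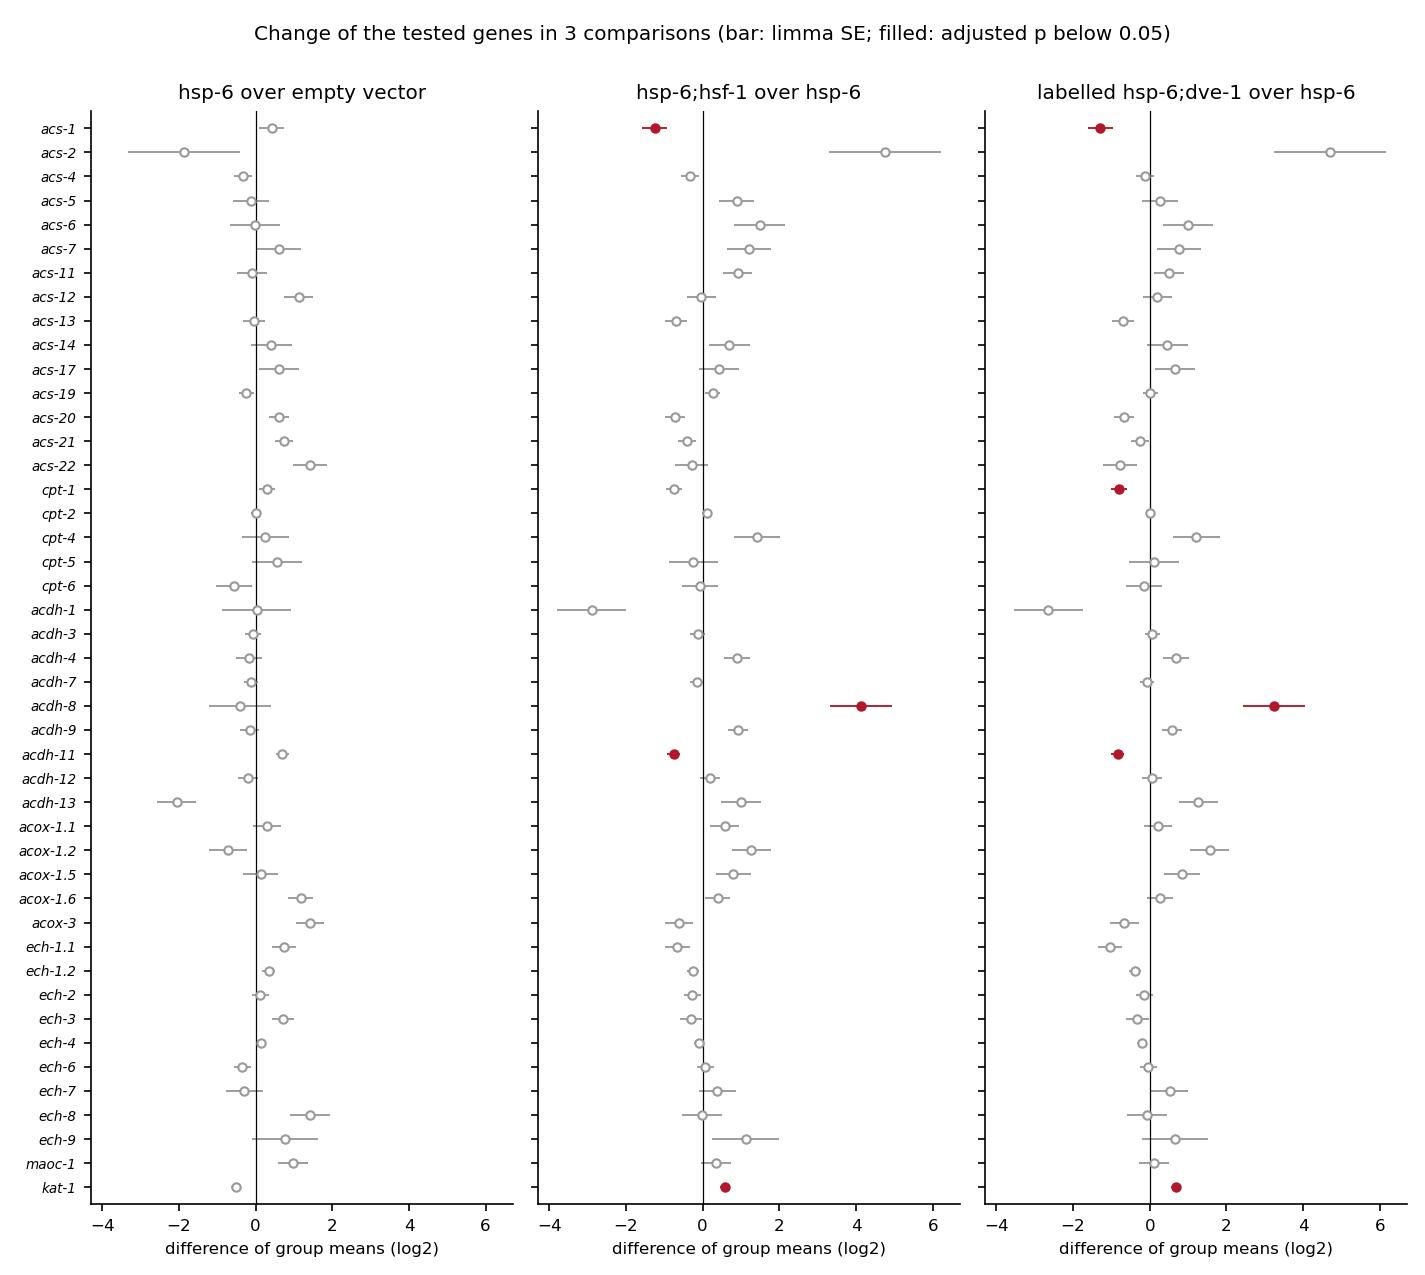
Differences of group means (log2, x axis) for the 45 tested genes (rows, by enzyme class) in hsp-6 RNAi over empty vector, hsf-1 double RNAi over hsp-6 RNAi, and the dve-1-labelled arrays over hsp-6 RNAi. Points are limma estimates from 3 arrays a group, bars their standard errors, and filled red points passed at adjusted p below 0.05: 0, 4 and 5 genes. acs-2 has a wide bar and an unfilled point in all panels, and so has acdh-1, whose difference is 0.03 in the first panel.

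Among the synthetases, acs-1 fell in both comparisons with hsp-6 RNAi. acs-1 activates the branched-chain fatty acids that worms make and need for growth. Its values were 8.78, 9.19 and 8.88 in hsf-1 double RNAi, 8.86, 8.64 and 9.22 on the dve-1-labelled arrays, 10.28, 10.27 and 10.05 in hsp-6 RNAi, and 8.91, 10.01 and 10.41 in empty vector. All 6 double RNAi arrays lay below the 3 hsp-6 RNAi arrays, while empty vector spread over both, with replicate 1 among the double RNAi arrays. The means were 8.95 ± 0.21 in hsf-1 double RNAi, 8.91 ± 0.29 on the dve-1-labelled arrays and 10.20 ± 0.13 in hsp-6 RNAi (SD, n = 3 each). acs-1 was thus 2.38-fold lower in hsf-1 double RNAi than in hsp-6 RNAi (log2 difference -1.25, SE 0.33, adjusted p = 0.0487). The dve-1-labelled arrays had it 2.45-fold lower (-1.29, SE 0.33, adjusted p = 0.0431). The call in hsf-1 double RNAi was lost under 7 of 12 other settings, among them no filter, quantile normalization and the fit without the variance trend, and without 7 of the 12 arrays in turn. The call on the dve-1-labelled arrays was lost under 5 of 12 settings and without 7 arrays in turn. A second acs-1 probe set gave differences of -1.50 and -1.70 (adjusted p = 0.0363 and 0.0236). Against empty vector, acs-1 differed by 0.42 in hsp-6 RNAi, -0.83 in hsf-1 double RNAi and -0.87 on the dve-1-labelled arrays, none past the test (adjusted p = 0.487, 0.136 and 0.133).

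acs-2 encodes a mitochondrial acyl-CoA synthetase that is induced by fasting through the nuclear receptor NHR-49. It had the largest differences from hsp-6 RNAi of all members, yet did not pass the test. Its values were 11.21, 7.47 and 11.32 in hsf-1 double RNAi and 11.38, 10.90 and 7.57 on the dve-1-labelled arrays. In hsp-6 RNAi they were 5.43, 4.87 and 5.43, and in empty vector 10.42, 5.08 and 5.84. Each double RNAi group had 2 high arrays and 1 lower one, all above hsp-6 RNAi, and empty vector replicate 1 was nearer to the high double RNAi arrays than to its own group. The difference was 4.75 in hsf-1 double RNAi over hsp-6 RNAi, with a 95% interval of 1.55 to 7.96 and an adjusted p of 0.0804. For the dve-1-labelled arrays it was 4.71 (adjusted p = 0.0822). Without empty vector replicate 1, which enters the shared estimate of the spread, acs-2 passed in both comparisons, at adjusted p = 0.0453 and 0.0457. A second acs-2 probe set showed the same high and low arrays, with differences of 3.97 and 3.87 (adjusted p = 0.0677 and 0.0733).

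acs-22, a fatty acid transport protein type synthetase that the worm needs for its cuticle barrier, had the largest positive difference of a synthetase in hsp-6 RNAi over empty vector. Its values were 8.82, 8.46 and 8.63 in hsp-6 RNAi, against 7.11, 7.83 and 6.72 in empty vector. The groups did not overlap, and the 2.67-fold difference did not pass the test (log2 difference 1.42, SE 0.44, adjusted p = 0.106). With only these 2 groups in the fit the adjusted p was 0.0427. In the double RNAi groups acs-22 had 7.73, 7.93 and 9.39 in hsf-1 double RNAi and 7.77, 8.41 and 7.42 on the dve-1-labelled arrays, which spread across the hsp-6 RNAi values in the first case and lay below them in the second. The differences from hsp-6 RNAi were -0.29 and -0.77 (adjusted p = 0.722 and 0.309). Its relative acs-20 was 7.99, 8.14 and 7.95 in hsp-6 RNAi, against 7.47, 7.09 and 7.65 in empty vector (difference 0.62, adjusted p = 0.192). The 11 remaining tested synthetases differed by -0.33 to 1.12 in hsp-6 RNAi over empty vector, with acs-4 lowest and acs-12 highest. None of these passed in any of the 6 comparisons. acs-6 lay near the floor, at 2.16 to 2.18, on all hsp-6 RNAi and empty vector arrays, and passed log2 4 on 3 double RNAi arrays.

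In the carnitine shuttle, cpt-1 encodes the carnitine palmitoyltransferase of the outer step, which sets the entry of long-chain fatty acids into mitochondria. Its values were 8.95, 9.10 and 9.08 in hsf-1 double RNAi, 9.28, 8.57 and 9.12 on the dve-1-labelled arrays, 9.76, 9.90 and 9.74 in hsp-6 RNAi, and 9.78, 9.49 and 9.27 in empty vector. All 6 double RNAi arrays lay below the hsp-6 RNAi arrays, and the empty vector arrays ran from the level of the highest double RNAi array up to that of the hsp-6 RNAi arrays. cpt-1 fell 1.75-fold on the dve-1-labelled arrays (log2 difference -0.81, SE 0.21, adjusted p = 0.0457), a call lost under 6 of 12 other settings and without 9 of the 12 arrays in turn. In hsf-1 double RNAi the difference was -0.75, and it missed the threshold (adjusted p = 0.0573). hsp-6 RNAi over empty vector gave 0.29 (adjusted p = 0.458).

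cpt-2, the enzyme of the inner step, was the steadiest member. It had 10.27, 10.26 and 10.26 in hsf-1 double RNAi, 10.18, 10.19 and 10.14 on the dve-1-labelled arrays, 10.11, 10.26 and 10.08 in hsp-6 RNAi, and 10.20, 10.16 and 10.04 in empty vector. The 95% intervals of its differences bound any change to between -0.16 and 0.38 in hsf-1 double RNAi over hsp-6 RNAi, and to between -0.26 and 0.29 in hsp-6 RNAi over empty vector. cpt-4 had 5.02, 3.57 and 5.56 in hsf-1 double RNAi and 5.0, 5.49 and 3.07 on the dve-1-labelled arrays, against 3.31, 3.49 and 3.09 in hsp-6 RNAi. It passed log2 4 on 4 double RNAi arrays and on no array of the other groups. Its differences of 1.42 and 1.22 from hsp-6 RNAi did not pass (adjusted p = 0.181 and 0.243). cpt-3, too low to be tested, was highest in hsp-6 RNAi, at 4.09, 3.73 and 4.46.

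**Figure D2:**
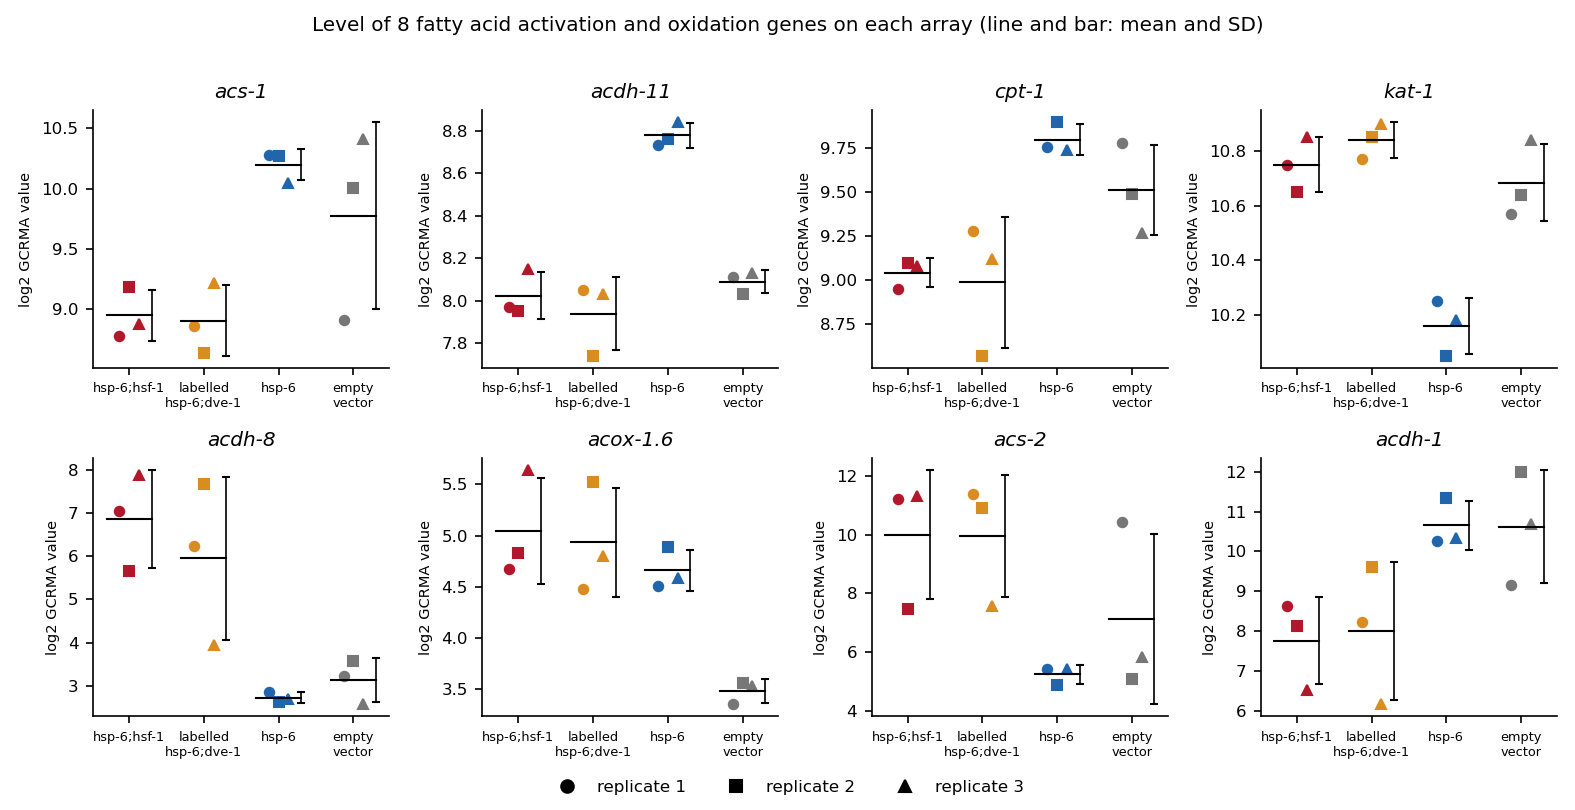
Level (log2 GCRMA value, y axis) of 8 genes on each array, by group from hsf-1 double RNAi to empty vector. Symbols give the replicate, lines and bars the mean and SD of 3 arrays. acs-1, acdh-11 and cpt-1 were highest in hsp-6 RNAi and kat-1 lowest there, acdh-8 was high on 5 of 6 double RNAi arrays, and acs-2 and acdh-1 spread widely within groups.

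The mitochondrial dehydrogenases that open each round of oxidation held 2 of the called genes. acdh-11 encodes an acyl-CoA dehydrogenase that binds medium-chain fatty acids and limits expression of the desaturase fat-7 when worms adapt to heat. Its values were 7.97, 7.95 and 8.15 in hsf-1 double RNAi, 8.05, 7.74 and 8.03 on the dve-1-labelled arrays, 8.73, 8.76 and 8.84 in hsp-6 RNAi, and 8.11, 8.03 and 8.13 in empty vector. The 3 hsp-6 RNAi arrays stood above all 9 others, and the other groups overlapped. acdh-11 fell 1.69-fold in hsf-1 double RNAi against hsp-6 RNAi (log2 difference -0.75, SE 0.17, adjusted p = 0.0283). It fell 1.79-fold on the dve-1-labelled arrays (-0.84, SE 0.17, adjusted p = 0.0197). The 1.61-fold difference of hsp-6 RNAi over empty vector just missed the threshold (0.69, SE 0.17, adjusted p = 0.0537). It passed under 6 of the other settings that keep all arrays or drop the 2 outermost, among them the fit of these 2 groups alone (adjusted p = 0.0306). Fitting only the 2 groups compared lost both acdh-11 calls against hsp-6 RNAi, however. The call in hsf-1 double RNAi was lost under 3 of 12 other settings, and that on the dve-1-labelled arrays under 2 of 12. Against empty vector the double RNAi groups differed by -0.07 and -0.15 (adjusted p = 0.785 and 0.544).

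acdh-8 had the largest called difference of any member. Its values were 7.06, 5.65 and 7.89 in hsf-1 double RNAi and 6.25, 7.68 and 3.94 on the dve-1-labelled arrays, against 2.86, 2.62 and 2.68 in hsp-6 RNAi and 3.22, 3.58 and 2.57 in empty vector. All hsp-6 RNAi and empty vector arrays lay below log2 4, toward the floor of 2.16, and the double RNAi arrays stood above them, dve-1-labelled replicate 3 by the least. It rose by 4.14 in hsf-1 double RNAi over hsp-6 RNAi (17.7-fold, SE 0.81, adjusted p = 0.0199) and by 3.24 on the dve-1-labelled arrays (9.43-fold, adjusted p = 0.0417). Because acdh-8 passed the filter only through double RNAi arrays, where it is high, the filter favoured a difference, and its call is a description. The second value ranged from 2.37 without dve-1-labelled replicate 2 to 4.25 without replicate 3. That call was lost without 9 of the 12 arrays in turn, each empty vector array included, and under 6 of 12 other settings, among them no filter and low values set to log2 4. The call in hsf-1 double RNAi was lost without 5 arrays in turn and under 3 of 12 settings.

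acdh-1 is a short and branched-chain acyl-CoA dehydrogenase of the propionate shunt, which breaks down propionate when vitamin B12 is scarce. Its values were 8.62, 8.13 and 6.53 in hsf-1 double RNAi, 8.23, 9.61 and 6.17 on the dve-1-labelled arrays, 10.27, 11.35 and 10.33 in hsp-6 RNAi, and 9.17, 12 and 10.69 in empty vector. The double RNAi arrays lay below all hsp-6 RNAi arrays, with a spread of several log2 units among themselves. The differences from hsp-6 RNAi were -2.89 in hsf-1 double RNAi and -2.65 on the dve-1-labelled arrays, and neither passed (adjusted p = 0.0833 and 0.105). Between hsp-6 RNAi and empty vector the difference was 0.03, with a 95% interval of -1.93 to 2.00 that allows a change of several fold in either direction.

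acdh-13 gave the largest negative difference of a dehydrogenase in hsp-6 RNAi over empty vector. It had 5.88, 5.14 and 5.76 in hsp-6 RNAi, against 7.77, 7.40 and 7.81 in empty vector, without overlap. The 4.18-fold difference missed the threshold (log2 difference -2.06, SE 0.51, adjusted p = 0.0583) and passed with only the 2 groups in the fit (adjusted p = 0.0157). In hsf-1 double RNAi it had 7.29, 7.17 and 5.32, and on the dve-1-labelled arrays 7.35, 6.03 and 7.22. Replicate 3 of hsf-1 double RNAi thus lay among the hsp-6 RNAi arrays, and the differences of 1.00 and 1.27 did not pass (adjusted p = 0.253 and 0.161). acdh-9 differed by 0.92 in hsf-1 double RNAi over hsp-6 RNAi (adjusted p = 0.0543). The 4 remaining tested dehydrogenases, acdh-3, acdh-4, acdh-7 and acdh-12, differed by at most 0.89 from hsp-6 RNAi, with no call.

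**Figure D3:**
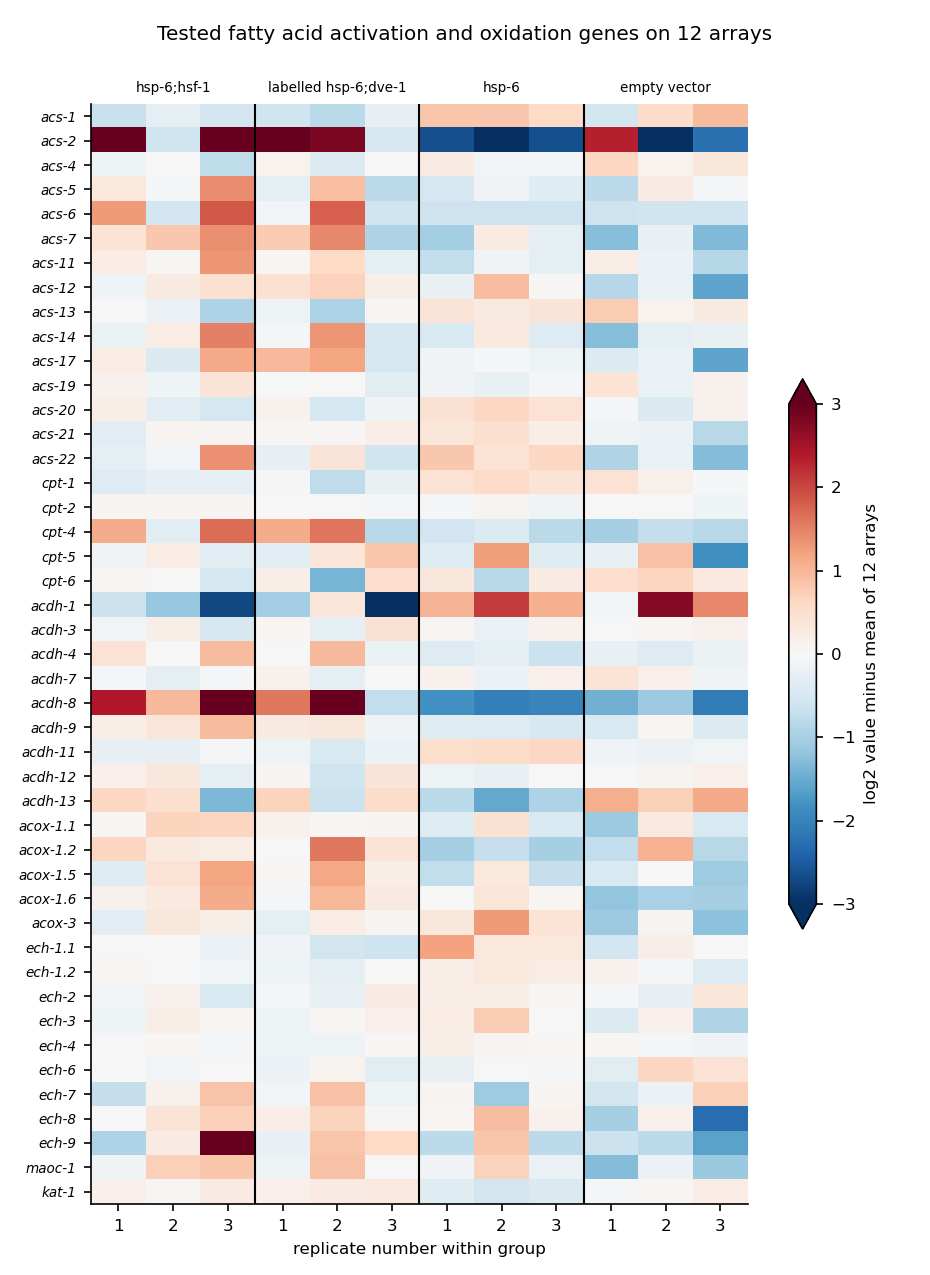
Each tested gene (rows) on each of the 12 arrays (columns, by group and replicate), as its log2 value minus its mean over the 12 arrays, red above and blue below. acs-1, acdh-11 and cpt-1 are red on the 3 hsp-6 RNAi arrays and blue or pale on all double RNAi arrays, while acs-2, acs-6, cpt-4 and acdh-8 are reddest on replicates 1 and 3 of hsf-1 double RNAi and dve-1-labelled replicates 1 and 2, though acs-6 is pale on dve-1-labelled replicate 1.

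In peroxisomes, acyl-CoA oxidases open the round in place of dehydrogenases, and several of them shorten ascaroside side chains. acox-1.6 was the only member called against empty vector. Its values were 4.67, 4.83 and 5.64 in hsf-1 double RNAi, 4.48, 5.52 and 4.80 on the dve-1-labelled arrays, 4.51, 4.89 and 4.58 in hsp-6 RNAi, and 3.35, 3.56 and 3.53 in empty vector. Every array of the 3 RNAi groups lay above the empty vector arrays, which were all below log2 4, so the gene passed the filter only through the groups where it is high, and its call is a description. On the dve-1-labelled arrays the difference from empty vector was 1.45 (SE 0.33, adjusted p = 0.0498), and the call was lost with no filter and with low values set to log2 4. That is 1 of 45 members, or 2.22%, where 2.27% of all probe sets were called, so the share is that of the background. The differences of 1.57 in hsf-1 double RNAi (adjusted p = 0.0847) and 1.18 in hsp-6 RNAi (adjusted p = 0.0851) did not pass.

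acox-3 had 9.41, 10.36 and 9.48 in hsp-6 RNAi, against 8.0, 9.15 and 7.84 in empty vector. Its groups did not overlap, and the 2.68-fold difference did not pass (log2 difference 1.42, SE 0.37, adjusted p = 0.0657). It passed without empty vector replicate 2, which was the highest of its group (1.83, adjusted p = 0.0241). acox-1.1, which acts on ascarosides, had 5.61, 6.42 and 5.50 in hsp-6 RNAi, against 4.88, 6.26 and 5.50 in empty vector. These arrays overlapped, and its differences were 0.30 there, 0.57 in hsf-1 double RNAi over hsp-6 RNAi and 0.21 on the dve-1-labelled arrays (adjusted p = 0.695, 0.362 and 0.769). acox-1.2 had the largest difference of an oxidase from hsp-6 RNAi, 1.27 in hsf-1 double RNAi and 1.56 on the dve-1-labelled arrays (adjusted p = 0.151 and 0.0911).

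The next step, hydration, had no called member in any of the 6 comparisons. maoc-1 encodes a peroxisomal enoyl-CoA hydratase. It had 10.28, 11.09 and 11.22 in hsf-1 double RNAi, 10.24, 11.26 and 10.39 on the dve-1-labelled arrays, 10.28, 11.07 and 10.18 in hsp-6 RNAi, and 9.09, 10.21 and 9.28 in empty vector. The 3 RNAi groups overlapped, and empty vector replicate 2 alone reached the lowest of them. The differences from empty vector were 1.33 in hsf-1 double RNAi, 1.1 on the dve-1-labelled arrays and 0.98 in hsp-6 RNAi (adjusted p = 0.0935, 0.121 and 0.18). ech-6, the hydratase of the propionate shunt, had 11.30, 11.22 and 11.31 in hsf-1 double RNAi, 11.12, 11.42 and 10.97 on the dve-1-labelled arrays, 11.08, 11.29 and 11.27 in hsp-6 RNAi, and 11, 11.95 and 11.74 in empty vector. All 4 groups overlapped, with differences of -0.35 in hsp-6 RNAi over empty vector, 0.07 in hsf-1 double RNAi over hsp-6 RNAi and -0.04 on the dve-1-labelled arrays (adjusted p = 0.381, 0.883 and 0.933). ech-1.2, the alpha subunit of the mitochondrial trifunctional protein, differed by 0.34, -0.25 and -0.38 in the same 3 comparisons (adjusted p = 0.254, 0.372 and 0.184). ech-4 spanned only 0.33 over the 12 arrays. ech-8 had the largest difference of a hydratase in hsp-6 RNAi over empty vector, 1.43 (adjusted p = 0.146), and ech-9 the widest range, 4.86, with its highest value on hsf-1 double RNAi replicate 3.

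kat-1, the 3-ketoacyl-CoA thiolase of the last step, whose loss makes worms accumulate fat, went the opposite way to acs-1 and acdh-11. Its values were 10.75, 10.65 and 10.85 in hsf-1 double RNAi, 10.77, 10.85 and 10.90 on the dve-1-labelled arrays, 10.25, 10.05 and 10.18 in hsp-6 RNAi, and 10.57, 10.64 and 10.84 in empty vector. The hsp-6 RNAi arrays lay below all 9 others, which overlapped among themselves. kat-1 rose 1.5-fold in hsf-1 double RNAi over hsp-6 RNAi (log2 difference 0.59, SE 0.13, adjusted p = 0.0294). On the dve-1-labelled arrays it rose 1.6-fold (0.68, SE 0.13, adjusted p = 0.0185). In hsp-6 RNAi against empty vector the difference of -0.52 missed the threshold (1.44-fold, SE 0.13, adjusted p = 0.0595). It passed with only the 2 groups in the fit (adjusted p = 0.0465). Fitting only 2 groups lost the kat-1 call in hsf-1 double RNAi over hsp-6 RNAi, which was lost under 4 of 12 other settings. That on the dve-1-labelled arrays was lost under 1 of 12. The double RNAi groups differed from empty vector by 0.06 and 0.16 (adjusted p = 0.733 and 0.431).

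All 9 calls against hsp-6 RNAi turned on its 3 arrays. Each was lost without any 1 of them, also without replicate 1 of the double RNAi group compared, and when the closely alike hsp-6 RNAi replicates 1 and 3 were averaged into 1 array. hsf-1 double RNAi replicate 3 and dve-1-labelled replicate 2, the 2 outermost arrays on the first principal component, ended the calls in their own comparison when left out singly. Without both at once, 5 and 4 members were called, and 722 and 771 of all probe sets. No change of sign accompanied a lost call, and the highest adjusted p among these calls without 1 array was 0.157. Leaving out hsf-1 double RNAi replicate 2 or dve-1-labelled replicate 2 gave 7 calls in hsf-1 double RNAi over hsp-6 RNAi, with acdh-9 among those gained each time. All probe sets called rose as well, to 1433 and 1104, from 684 with all arrays. For the dve-1-labelled arrays over hsp-6 RNAi, 2 members were called without hsf-1 double RNAi replicate 1, 3 without empty vector replicate 2, and 7 without dve-1-labelled replicate 3, which added acs-2 and cpt-4. In hsp-6 RNAi over empty vector, leaving out hsf-1 double RNAi replicate 3 gave 5 calls (acdh-11, acdh-13, acox-1.6, acs-22 and kat-1). Leaving out dve-1-labelled replicate 2 gave 2 (acdh-11 and acdh-13), and empty vector replicate 2 gave 2 (acox-3 and ech-8). All probe sets called numbered 739, 379 and 236 there, against 330 with all arrays. The acox-1.6 call was lost without 10 of the 12 arrays in turn, at an adjusted p of up to 0.175.

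Against empty vector, hsf-1 double RNAi called 0 members in limma, and 0% of all probe sets. Of the 45 tested members, 17 had an unadjusted p below 0.05, where 29.8% of all probe sets did. Leaving out hsf-1 double RNAi replicate 2 gave 4 calls (acdh-8, acox-1.6, acs-6 and cpt-4). Leaving out dve-1-labelled replicate 2 or 3 gave 2 each (acdh-8 and acox-1.6), with 0 under all other settings. All probe sets called numbered 1047, 316 and 230 in these 3 fits. These 4 genes lay below log2 4 on all empty vector arrays and passed the filter only through groups where they are high, so their calls are a description. The members' median difference was 0.33, against -0.13 for all probe sets tested. No overlap between groups was seen for 17 members (37.8%, against 36.9% of all probe sets), the same 4 genes among them. For the dve-1-labelled arrays the median was 0.40, against -0.10, with 12 of the 45 members at an unadjusted p below 0.05 (26.8% of all probe sets). There were 11 members, or 24.4%, without overlap (32.4% of all probe sets), acdh-8 and acox-1.6 among them. Without dve-1-labelled replicate 3 that comparison called 5 members, and 1038 of all probe sets. Among the 5 were acdh-8, acox-1.6 and cpt-4, with the same limit of the filter. Set directly against the dve-1-labelled arrays, hsf-1 double RNAi had 0 members called, where 0.232% of all probe sets were, and 0 members at an unadjusted p below 0.05, where 2.3% of all probe sets were. No other setting called one. cpt-2 alone had no overlap between the groups, which is 2.22% of members against 3.67% of all probe sets, with a difference of 0.10 and a 95% interval of -0.18 to 0.37. Intervals were wide for other members: the difference in acs-6 was 0.49, with -0.97 to 1.94.

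Genes of the same pathways under other names were read from lists. Against empty vector, 2.74% of all probe sets were called in hsp-6 RNAi and 2.27% on the dve-1-labelled arrays. Against hsp-6 RNAi, 5.67% were called in hsf-1 double RNAi and 5.74% on the dve-1-labelled arrays. The counts of these lists were not tested against those shares. The calls named from them lie close to the threshold, and how far they hold under other settings is not given here. None of the 6 mitochondrial partners, which include the hydroxyacyl-CoA dehydrogenase gene hacd-1, was called in any comparison (limma). hacd-1 differed by 0.64 in hsf-1 double RNAi over hsp-6 RNAi (adjusted p = 0.291). Of 19 tested peroxisomal partners, 1 was called, prx-19, whose product brings membrane proteins to peroxisomes. prx-19 had 9.64, 10.07 and 9.69 in hsf-1 double RNAi, 9.70, 9.66 and 10.17 on the dve-1-labelled arrays, 10.48, 10.81 and 10.43 in hsp-6 RNAi, and 9.84, 9.64 and 9.71 in empty vector. The hsp-6 RNAi arrays stood above all others, as for acdh-11. prx-19 rose by 0.84 in hsp-6 RNAi over empty vector (adjusted p = 0.0438), and fell by 0.77 in hsf-1 double RNAi (adjusted p = 0.0413) and by 0.73 on the dve-1-labelled arrays (adjusted p = 0.0492) against hsp-6 RNAi. daf-22, the peroxisomal thiolase that completes ascaroside side chains, differed by 1.17 in hsp-6 RNAi over empty vector (adjusted p = 0.107). The peroxisomal list's median difference there was 0.45, against -0.02 for all probe sets.

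Of 9 genes of propionate breakdown, mce-1, the methylmalonyl-CoA epimerase, was the only one called. It had 8.92, 9.07 and 8.95 on the dve-1-labelled arrays and 8.81, 9.16 and 8.84 in hsp-6 RNAi, against 8.29, 8.14 and 8.18 in empty vector. Neither group overlapped with empty vector, and mce-1 rose by 0.77 (adjusted p = 0.0436) and by 0.73 (adjusted p = 0.0458). Of 7 tested genes of branched-chain amino acid breakdown, dld-1, the shared dihydrolipoamide dehydrogenase subunit, rose by 0.70 in hsf-1 double RNAi over hsp-6 RNAi (adjusted p = 0.0399). dbt-1, the E2 subunit of the branched-chain dehydrogenase, fell by 0.50 on the dve-1-labelled arrays (adjusted p = 0.0382). Of 14 tested regulators of fat oxidation, 0 were called in any comparison by limma. nhr-49, the nuclear receptor that controls acs-2, had 10.70, 10.44 and 10.60 in hsf-1 double RNAi, 10.66, 10.38 and 10.37 on the dve-1-labelled arrays, 10.91, 10.83 and 10.75 in hsp-6 RNAi, and 11.13, 10.78 and 11.16 in empty vector. All 6 double RNAi arrays lay below the 3 hsp-6 RNAi arrays in nhr-49, unlike in acs-2, while empty vector replicate 1 was near the top of both. Its difference from hsp-6 RNAi was -0.25 in hsf-1 double RNAi (adjusted p = 0.333) and -0.36 on the dve-1-labelled arrays (adjusted p = 0.175).

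Tissue markers moved with the double RNAi groups, and in whole worms more cells of a type and more RNA per cell cannot be told apart. The mean log2 value of 24 sperm genes was 12.08, 10.57 and 12.02 in hsf-1 double RNAi, 11.58, 12.33 and 9.31 on the dve-1-labelled arrays, 7.54, 3.91 and 7.35 in hsp-6 RNAi, and 7.15, 9.08 and 4.74 in empty vector. Of 23 tested, 21 rose in hsf-1 double RNAi and 12 on the dve-1-labelled arrays against hsp-6 RNAi, where 5.67% and 5.74% of all probe sets were called. Against empty vector, 0 were called in either group. All tested sperm genes but spe-11 belong to the msp family, whose values moved together over the arrays, so these are not counts of independent genes. spe-9 lay at the floor on all arrays. The summed sperm marker level, on the log2 scale, was 15.98 to 17.53 in hsf-1 double RNAi and 14.71 to 17.72 on the dve-1-labelled arrays, against 8.69 to 12.92 in hsp-6 RNAi and 9.69 to 14.51 in empty vector. Replicate 2 of hsf-1 double RNAi and dve-1-labelled replicate 3 were the lowest of their groups in sperm markers, as they were in acs-2, acdh-8 and cpt-4.

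Cuticle markers had the same low replicates. Of 21 cuticle genes, 10 rose in hsf-1 double RNAi and 10 on the dve-1-labelled arrays against hsp-6 RNAi. Of 15 tested muscle genes 6 and 5 rose in the same comparisons. Against empty vector, 0 cuticle genes were called in either group, while 0 muscle genes rose in hsf-1 double RNAi and 3 on the dve-1-labelled arrays. The summed cuticle level was 16.17 to 16.91 in hsf-1 double RNAi and 16.12 to 16.81 on the dve-1-labelled arrays, against 14.98 to 15.18 in hsp-6 RNAi and 14.93 to 16.02 in empty vector. The summed muscle level was 15.04 to 15.75 in hsf-1 double RNAi and 14.93 to 15.76 on the dve-1-labelled arrays, against 14.38 to 14.53 in hsp-6 RNAi and 14.10 to 14.56 in empty vector. Of 15 intestine genes, 3 rose in hsf-1 double RNAi, and 1 rose and 1 fell on the dve-1-labelled arrays, against hsp-6 RNAi. Their summed level was 15.34 to 16.16 in hsf-1 double RNAi, 15.11 to 16.03 on the dve-1-labelled arrays, 15.37 to 15.65 in hsp-6 RNAi and 14.50 to 15.13 in empty vector. Of 17 oocyte and eggshell genes, 1 fell in hsf-1 double RNAi. Their summed level was 16.03 to 16.68 in hsf-1 double RNAi and 16.09 to 16.80 on the dve-1-labelled arrays. It was 16.94 to 17.02 in hsp-6 RNAi and 16.77 to 17.18 in empty vector. All double RNAi arrays thus lay below the hsp-6 RNAi arrays in this sum, opposite to sperm, cuticle and muscle markers. None of 5 tested embryo genes was called, with ceh-51 and med-1 at the floor on all arrays. The summed embryo level was 7.94 to 8.84 in hsf-1 double RNAi and 7.98 to 9.13 on the dve-1-labelled arrays. It was 7.86 to 9.03 in hsp-6 RNAi and 9.64 to 10.07 in empty vector. Within each double RNAi group acs-1 was highest, at 9.19 and 9.22, on the 2 replicates lowest in sperm and cuticle markers. These were its values nearest to hsp-6 RNAi, and acs-2, acdh-8 and cpt-4 were also nearest to hsp-6 RNAi on these arrays. kat-1 was nearest to hsp-6 RNAi on hsf-1 double RNAi replicate 2 and dve-1-labelled replicate 1, cpt-1 on those same 2 arrays, and acdh-11 on hsf-1 double RNAi replicate 3 and dve-1-labelled replicate 1. The part of tissue makeup in the member differences was not tested.

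**Figure D4:**
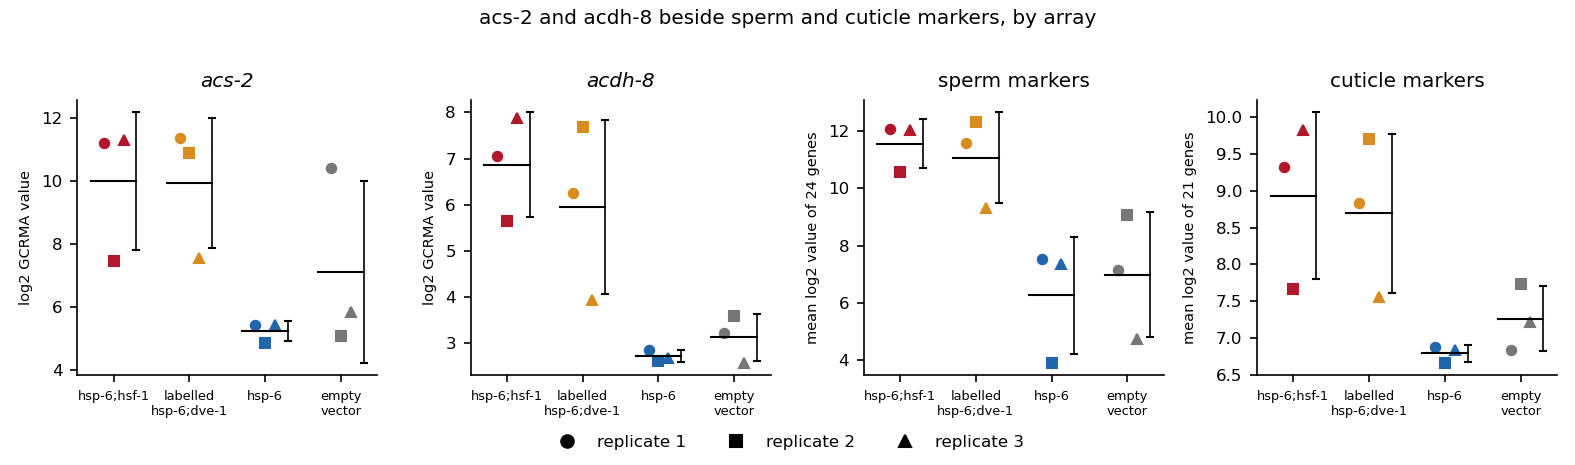
acs-2 and acdh-8 (log2 GCRMA value) beside the mean log2 value of 24 sperm and 21 cuticle marker genes, on each array, by group from hsf-1 double RNAi to empty vector. Symbols give the replicate, lines and bars the mean and SD of 3 arrays. In all 4 panels hsf-1 double RNAi replicate 2 and dve-1-labelled replicate 3 are the lowest of their groups, and empty vector replicate 1 is high in acs-2 but not in the markers.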

How the data were processed

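Total RNA was measured on 12 Affymetrix arrays. The deposited values are log2 values made by the authors with GCOS 1.4 and GCRMA, per the submitters' processing notes, and no source used here gives the GCRMA settings. The lowest deposited value was log2 2.16, and some weak probe sets stayed at a constant value above it, such as acs-25 at 2.61 on most arrays. Differences measured against values this low are uncertain in size and may be too small. Their bias was not tested. Arrays carry no read depth, and their number limits the precision. Of 22625 probe sets, 20766 carried 1 gene symbol in the platform annotation, 887 carried several and 77 were controls, which were left out. All 58 members were found in the RefSeq gene table.

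Probe sets above log2 4 on at least 3 arrays were tested with limma 3.58.1 in R 4.3.3, as 4 group means in 1 fit with an intensity trend (8 residual and 3.16 prior degrees of freedom). Tests were two-sided, and a call is an adjusted p below 0.05 after Benjamini-Hochberg adjustment over 12057 probe sets, separately in 6 comparisons. Values and tests are given in full for members called in any comparison and for acdh-1, acdh-11, acox-1.1, cpt-1, cpt-2, ech-6, maoc-1, kat-1, acs-2 and acs-22 whatever their result. Other members are named where they are the largest or smallest of a class. acs-20, cpt-3, cpt-4, acs-6, acdh-9, acdh-13, acox-3 and ech-1.2 were added after their values were seen. Probe sets of 21 tested members, cpt-1, acs-22, acdh-13, acox-1.6, acox-3 and ech-6 among them, carry the suffix s_at, which marks probes that can match several transcripts. The members and gene lists were chosen with earlier results of these data known.

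No replicate block was used, since the labels give no shared origin for equal numbers. Calls were tested on simulated data. Other settings tried were a minimum of log2 6 or no filter, quantile normalization, median centring, 2 other variance models, a floor of log2 4, a fit of 2 groups, a replicate block, other probe sets and each array left out. 2 further ones, averaging hsp-6 RNAi replicates 1 and 3 and leaving out the 2 outermost arrays, were chosen after seeing the data. Python 3.11.15 with matplotlib 3.10.9 drew the figures. No sequences or coordinates were used.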

Additional observations from a re-analysis of the deposited data

How the results depend on the processing

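The number of members called depended on the processing in 4 of the 6 comparisons. In hsp-6 RNAi against empty vector (0 called), 3 were called with no filter, 1 with quantile normalization, 2 with median centring, 1 without the variance trend, 5 with only the 2 groups compared, 1 with the replicate block and 6 without the 2 outermost arrays. In hsf-1 double RNAi against hsp-6 RNAi (4 called), 2 were called without the trend, 2 with low values set to log2 4, 1 with the replicate block and 0 with hsp-6 RNAi replicates 1 and 3 averaged. On the dve-1-labelled arrays against hsp-6 RNAi (5 called), 3 were called with no filter, 3 without the trend, 3 with only the 2 groups compared, 2 with the replicate block and 0 with those replicates averaged. Against empty vector (1 called), they had 0 with no filter, a minimum of log2 6, quantile normalization, median centring, the robust variance model, values under log2 4 set to it, only the 2 groups compared, the replicate block and the averaged replicates. Without 1 array at a time, the counts ran from 0 to 5 in hsp-6 RNAi against empty vector, 0 to 7 in hsf-1 double RNAi and 0 to 7 on the dve-1-labelled arrays against hsp-6 RNAi. They ran from 0 to 4 and 0 to 5 for the same groups against empty vector, and were 0 throughout between the double RNAi groups. Calls over all probe sets moved as well. In hsp-6 RNAi against empty vector they went from 330 to 1049 with only the 2 groups compared and to 1681 without the 2 outermost arrays. With hsp-6 RNAi replicates 1 and 3 averaged they went from 684 to 35 in hsf-1 double RNAi against hsp-6 RNAi. On the dve-1-labelled arrays they went from 692 to 106. The cause of these changes was not tested. Deviations from the group means correlated at over 0.1 in 8 of the 18 same-numbered pairs, not in all, so the numbers were not taken to pair the samples for the replicate block. The 6 pairs of replicate 1 ran from 0.10 to 0.61, the others from -0.76 to 0.25. Of 6990 values of single genes under alternatives, 6723 kept their side of the threshold, 203 lost a call and 64 gained one. There were 0 changes of sign among called values and 225 among values not called. Most of the 6990 values were not called in the main fit, so their agreement says little of the calls. Each member call was lost without 5 to 10 of the 12 arrays in turn. Genes near the floor, such as acdh-8 and acs-6, are limited by signal over background. The size of their differences from hsp-6 RNAi and empty vector is uncertain, and both acdh-8 calls were lost with low values set to log2 4.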

Other observations

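kat-1 also shares a probe set with the gene T02G5.4, and this one was left out of the members because it carries 2 symbols. It had 10.27, 10.47 and 10.37 in hsf-1 double RNAi, 10.54, 10.48 and 10.33 on the dve-1-labelled arrays, 9.92, 9.81 and 9.80 in hsp-6 RNAi, and 10.27, 10.61 and 10.56 in empty vector. As with the kat-1 probe set, the hsp-6 RNAi arrays lay below all 9 others. Here the fall by 0.64 in hsp-6 RNAi against empty vector passed the test (SE 0.14, adjusted p = 0.0407). It rose by 0.61 on the dve-1-labelled arrays over hsp-6 RNAi (adjusted p = 0.034), and the difference of 0.52 in hsf-1 double RNAi did not pass (adjusted p = 0.0553). The signal of the 2 genes cannot be told apart. The probe set shared by the peroxisomal oxidases acox-1.3 and acox-1.4 was called in none of the 6 comparisons, with differences of 0.16 in hsp-6 RNAi over empty vector, 0.21 in hsf-1 double RNAi over hsp-6 RNAi and -0.58 on the dve-1-labelled arrays (adjusted p = 0.905, 0.818 and 0.503).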
